A study of Mus musculus with 12 samples.

Results

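The 41 genes described here are the members of the tumour necrosis factor (TNF) superfamily and of the NF-kB pathway on a NanoString mouse immunology panel, measured in the skin of a mouse model of cutaneous lupus erythematosus (CLE). They were taken by symbol from the 561 gene probes of the panel: 12 ligands, 12 receptors, 5 TRAF adaptors, 3 genes of the IkB kinase (IKK) group, 4 NF-kB subunits, 3 inhibitors or cofactors of NF-kB (Nfkbia, Nfkbiz and Bcl3) and 2 genes named for their induction by TNF (Tnfaip3 and Tnfaip6). Tnfrsf1a and Cd70 were not analysed here.

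TNF family ligands are trimeric proteins on or released from the cell surface. Their receptors recruit TRAF adaptors, and these activate the IKK complex, which marks the inhibitor encoded by Nfkbia for destruction and so frees the NF-kB dimers to enter the nucleus. A second branch, used by the lymphotoxin beta receptor, CD40, RANK and the BAFF receptor, leads through processing of the Nfkb2 product to dimers with RelB. In skin the pathway is known for the control of keratinocyte survival and for the inflammatory genes that draw leukocytes into the tissue.

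RNA came from the frozen skin of 12 female mice in 3 groups of 4, each mouse giving 1 library. All mice had received OT2 CD4 T cells, which had been cultured for 10 days under Th2 conditions, and skin was taken at first disease, about 3 to 4 weeks later: lesional skin in diseased mice and similar sites in littermates. Merkel het CLE mice carried the transgenes rtTA and K5TGO that give the skin autoantigen, with Atoh1flox/wt K14Cre+. Atoh1 is the transcription factor that Merkel cells, the touch receptors of the epidermis, need to form. The labels describe these mice as having lost part of their Merkel cells. Merkel het CLE mice 1 and 2 were TLR9wt/wt, and mice 3 and 4 were TLR9ko/ko. CLE mice were rtTA+K5TGO+TLR9ko/ko mice of the parental strain with their Merkel cells. Littermates lacked rtTA, K5TGO or both and could not express the autoantigen, but differed among themselves. Littermate 1 was rtTA-K5TGO-TLR9ko/wt with Atoh1flox/flox K14Cre-, littermate 2 was rtTA-K5TGO+TLR9ko/ko with Atoh1wt/wt K14Cre-, littermate 3 was rtTA-K5TGO+TLR9ko/ko with Atoh1flox/wt K14Cre+, and littermate 4 was rtTA+K5TGO-TLR9ko/ko with Atoh1flox/flox K14Cre+. The labels give a partial loss of Merkel cells for littermate 3 and a full loss for littermate 4. K14Cre acts in the basal epidermis rather than in Merkel cells alone. Strain, TLR9 genotype and Merkel cell loss therefore differ together between the groups and cannot be told apart in full. Skin disease scores of Merkel het CLE mice 1 to 4 were 3, 2, 2 and 2.5, those of CLE mice 1 to 4 were 2.5, 1, 1 and 3, and all littermates scored 0.

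Values are barcode counts multiplied by 1 factor per library, here called units. The recovered gene counts ran from 99297 in littermate 2 to 682043 in Merkel het CLE 1, and the factors from 0.715 to 5.56. The largest factors belonged to littermate 2 and CLE 1, whose background thresholds stood at 116 and 106 units, against 17.6 to 53.2 units in the other libraries. A value was called above background where it exceeded the mean plus 2 SD of the library's 8 negative controls. Of the 41 members, 18 were above background in all 12 libraries, and 37 passed the filter of at least 4 libraries and were tested among 451 genes. Tnfrsf8, Tnfrsf9, Tnfrsf13c and Tnfsf8 did not pass. None of the 6 Merkel cell markers looked for was on the panel, and of 8 keratinocyte genes only Ctnnb1 and Defb1 were, so neither the label of skin nor the loss of Merkel cells could be checked closely. In whole skin, fewer cells of a type and less RNA per cell cannot be told apart. A map of the members over all libraries shows the warm columns of CLE 1 and CLE 2 and the rows of Tnfaip6 and Bcl3.

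**Figure D1:**
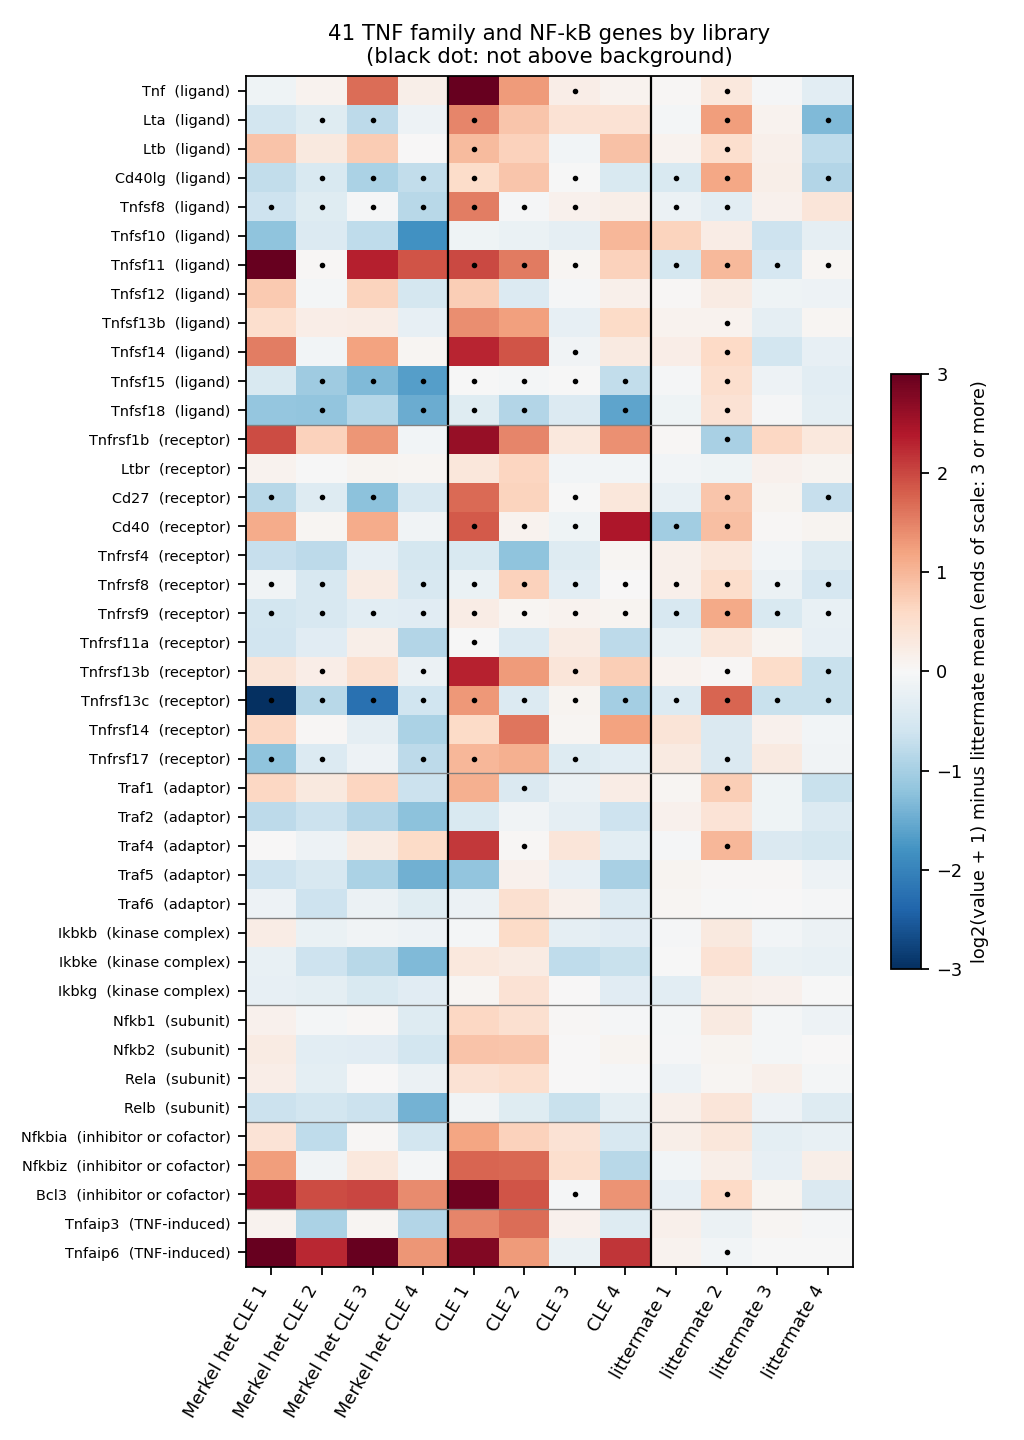
Signal of the 41 members (rows, grouped by role) in the 12 libraries (columns, Merkel het CLE, CLE, then littermates), as log2(value + 1) minus the littermate mean; a black dot marks a value not above background. Tnfaip6 and Bcl3 are above the littermate mean in all 4 Merkel het CLE libraries, and Relb, Traf2 and Traf5 are below it in all 4.

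Skin of Merkel het CLE mice had more Tnfaip6 and Bcl3 RNA than littermate skin, and less Tnfsf18, Tnfsf15 and Traf2. These 5 of 37 tested members (13.5%) passed a limma adjusted p of 0.05, beside 53 of all 451 genes (11.8%). The share of members called was thus near that of the panel. By direction, 2 members were higher, beside 4.88% of all genes, and 3 were lower, beside 6.87% of all genes; the split was 2 higher and 6 lower with median centring and 3 higher and 6 lower with quantile normalization. The values of the 2 groups did not overlap for 9 members (24.3%), beside 30.6% of all genes; the other 4 of these were Relb, Traf5, Ikbke and Traf6, each lower. The median log2 difference of the members was -0.14, and that of all genes tested was 0.01. With either of these scalings Relb, Ikbke and Tnfsf10 were also called lower. The calls rested on the full set of mice, for members and panel alike: no member was called without Merkel het CLE 1, without Merkel het CLE 3 or without any 1 of the 4 littermates, 1 was called without Merkel het CLE 4 or without CLE 2, and 3 without Merkel het CLE 2. In the 6 fits with no member called, 2 to 9 of all 451 genes were called in place of 53, and the fits without Merkel het CLE 4, CLE 2 and Merkel het CLE 2 called 15, 30 and 59 genes. Neither a member nor any other gene was called among the TLR9ko/ko libraries alone or without the 2 K14Cre+ littermates; the 5 kept their direction in each of these fits, and where no member was called 8 to 12 had an unadjusted limma p under 0.05 (10 with all mice, 27% of members, beside 29.7% of all genes).

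Tnfaip6 encodes a secreted protein that binds hyaluronan and is induced by TNF and IL-1. Its signal was 1109.7, 310.4, 730.3 and 163 units in the Merkel het CLE mice (numbers 1 to 4 in order), 445, 158, 55.9 and 287 units in the CLE mice, and 69.1, 60.6, 63.8 and 64.2 units in the littermates, in the same order of mice. Each Merkel het CLE library lay above each littermate, the littermates sat within a narrow band, and CLE 3 alone among the diseased mice lay below them. The log2 difference between Merkel het CLE mice and littermates was 2.79 ± 0.66 (SE, n = 4 per group; limma adjusted p = 0.0261), a 6.90-fold rise. Leaving out 1 library at a time gave log2 differences of 2.35 to 3.27 and adjusted p-values of 0.00695 to 0.0810. Littermate 2 was not above background for Tnfaip6, and with background subtracted the log2 difference was 3.58.

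Bcl3 encodes an atypical IkB protein that binds the p50 and p52 subunits in the nucleus and modulates their target genes. Its signal was 215, 137, 142 and 94.2 units in Merkel het CLE mice, 267, 131, 33.5 and 89.3 units in CLE mice and 28.6, 52.6, 36.5 and 25.4 units in littermates. All Merkel het CLE libraries exceeded all littermates, while CLE 3 lay within the littermate range. The log2 difference between Merkel het CLE mice and littermates was 2.00 ± 0.54 (adjusted p = 0.0399), a 4.01-fold rise, with 0.00730 to 0.112 as the range of adjusted p when 1 library was left out. Of the littermates, 3 were above background for Bcl3, and with background subtracted the log2 difference was 3.52 (adjusted p = 0.0241). Neutrophil markers were set beside both genes. All 4 tested of the 5 on the panel were called higher in Merkel het CLE mice than in littermates, beside 4.88% of all genes. Their sum was 9834 to 61021 units in Merkel het CLE mice, 1228 to 236327 in CLE mice and 122 to 503 in littermates. The sum includes Camp, which did not pass the filter. Every CLE library exceeded every littermate, also CLE 3, whose Tnfaip6 and Bcl3 did not. S100a8 (6581 to 38203 units) and S100a9 (2970 to 23527) were its largest terms in Merkel het CLE mice. Cxcr2 was 147 to 492 units in Merkel het CLE mice, 19.6 to 1540 in CLE mice and 6.05 to 48.5 in littermates. Macrophage and monocyte markers summed to 1424 to 5665 units in Merkel het CLE mice, 1070 to 9681 units in CLE mice and 970.4 to 1767 units in littermates, and none of the 6 tested was called. Their part in the rise of Tnfaip6 and Bcl3 was not tested.

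The promoters of these 2 genes are shown because both rose together, with those of Nfkbia, a standard NF-kB target that was not called, and of Traf2, which fell. Sequences are from RefSeq (GRCm38.p6), 5′ to 3′ on the strand of the gene. Each covers bases before the annotated gene, except a short Bcl3 stretch across the transcript start, and capitals mark a match on either strand to the NF-kB consensus (the kB motif) or to the AP-1 motif TGANTCA.
Tnfaip6, chr2:52037863-52038112, plus strand: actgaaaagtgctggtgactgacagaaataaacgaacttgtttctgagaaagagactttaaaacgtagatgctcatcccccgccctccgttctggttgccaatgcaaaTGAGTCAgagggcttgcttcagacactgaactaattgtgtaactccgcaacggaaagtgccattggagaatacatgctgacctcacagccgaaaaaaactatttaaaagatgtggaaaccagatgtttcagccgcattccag
Bcl3, chr7:19822825-19823005, minus strand: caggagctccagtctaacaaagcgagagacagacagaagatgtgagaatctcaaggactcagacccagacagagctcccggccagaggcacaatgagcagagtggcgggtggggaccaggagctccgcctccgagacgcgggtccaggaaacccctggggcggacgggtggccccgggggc
Bcl3, chr7:19822734-19822763, minus strand, across the start of the annotated transcript: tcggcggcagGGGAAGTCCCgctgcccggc
Nfkbia, chr12:55492648-55492897, minus strand: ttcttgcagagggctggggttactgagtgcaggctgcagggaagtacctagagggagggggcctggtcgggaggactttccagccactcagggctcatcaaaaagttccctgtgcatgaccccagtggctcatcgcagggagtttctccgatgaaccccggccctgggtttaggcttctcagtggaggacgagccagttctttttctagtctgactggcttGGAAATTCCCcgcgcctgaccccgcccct
Traf2, chr2:25546941-25547190, minus strand: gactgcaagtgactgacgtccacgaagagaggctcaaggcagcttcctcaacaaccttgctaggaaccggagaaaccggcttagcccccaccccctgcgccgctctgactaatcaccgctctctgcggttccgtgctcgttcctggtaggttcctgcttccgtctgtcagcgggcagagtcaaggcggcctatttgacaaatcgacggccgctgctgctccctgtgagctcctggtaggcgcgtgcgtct

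The Tnfaip6 window held 1 AP-1 match and no kB match. Bcl3 had no match in the bases before the gene and 1 kB match just after the transcript start. Nfkbia had 1 kB match near its start, and Traf2 had neither motif. Over windows of 300 bases (250 before and 50 after the start), 34 of the 41 members had an entry. A kB match was found in 7 of these 34 (20.6%), namely Bcl3, Ltb, Nfkb2, Nfkbia, Tnfaip3, Tnfrsf8 and Tnfrsf9, beside 9.55% of 27025 genes. TGANTCA was found in 9 of the 34 (26.5%), beside 8.97% of all genes, and no match of it overlapped a kB match. Among the 5 called genes, Tnfsf18 and Tnfsf15 had neither motif in these windows. A match is a run of letters and was not tested for binding.

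Traf2, the adaptor that links TNF receptors to the ubiquitin ligases of the pathway, had 137, 151, 128 and 99.7 units in Merkel het CLE mice, 172, 219.7, 197 and 154 units in CLE mice and 259, 315, 217 and 177 units in littermates. All 12 values were above background. Every Merkel het CLE library was below every CLE library and every littermate. The log2 difference between Merkel het CLE mice and littermates was -0.89 ± 0.26 (adjusted p = 0.0463), and it lay between -1.03 and -0.75 when 1 library was left out. The call held without Merkel het CLE 2, CLE 1, CLE 3 or CLE 4, and was lost without any other 1 library. It was also lost with background subtracted, with a pseudocount of 16 and without a filter.

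The other 2 genes that fell are ligands near the background. Tnfsf18, the ligand of the co-stimulatory receptor GITR, had 22.2, 21.5, 27.5 and 17.4 units in Merkel het CLE mice, 38.9, 27.2, 37.7 and 16.2 units in CLE mice and 46.4, 68.7, 49.6 and 41.1 units in littermates, and all 8 diseased mice lay below all 4 littermates. Only 2 Merkel het CLE libraries, 1 CLE library and 3 littermates were above background. The log2 difference was -1.17 ± 0.32 between Merkel het CLE mice and littermates (adjusted p = 0.0414), and the call was lost when background was subtracted (adjusted p = 0.286).

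Tnfsf15, the TL1A ligand, had 24.3, 15.7, 12.9 and 10.1 units in Merkel het CLE mice, 33.4, 32.1, 33.5 and 19.7 units in CLE mice and 32.6, 48.5, 30.4 and 26.6 units in littermates. It was above background in 1 Merkel het CLE library, in no CLE library and in 3 littermates. The log2 difference between Merkel het CLE mice and littermates was -1.12 ± 0.32 (adjusted p = 0.0463). Subtracting background ended this call as well (adjusted p = 0.436).

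**Figure D2:**
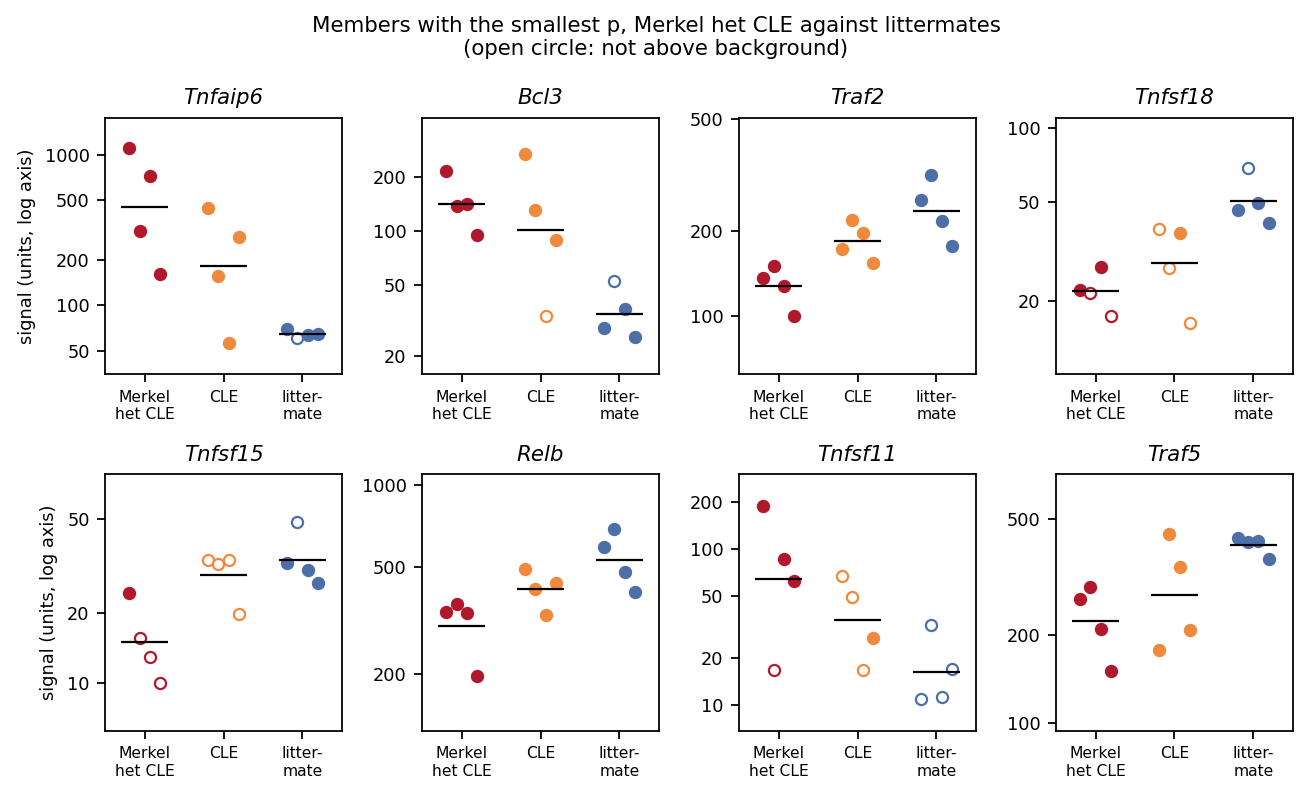
Signal in units (log axis) of the 8 members with the smallest p between Merkel het CLE mice and littermates, 1 point per library with the mean on the log scale as a line; open circles are not above background. Tnfaip6 and Bcl3 stand above the littermates in all 4 Merkel het CLE libraries, while Traf2, Tnfsf18, Tnfsf15, Relb and Traf5 stand below them in all 4.

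In CLE mice with their Merkel cells, no member was called against littermates, as for the panel as a whole (0% of 451 genes called). At an unadjusted limma p under 0.05 there were 6 members (16.2%), beside 26.6% of all genes. The members with the smallest p were Bcl3 at a log2 difference of 1.53 ± 0.54 (adjusted p = 0.130), Tnfrsf13b at 1.17 ± 0.42, Tnfrsf1b at 1.44 ± 0.54, Tnfsf18 at -0.81 ± 0.32 and Tnfaip6 at 1.50 ± 0.66. Only Tnfsf18 showed no overlap between the groups, 1 of 37 members (2.7%) beside 11.1% of all genes. The members' median log2 difference was 0.34, against 0.35 over all genes. The count of 0 called depended on CLE 3 and on the weighting of the libraries. With array weights, 3 members (8.11%) were called, beside 108 of all 451 genes (23.9%). Without CLE 3, a mouse with a disease score of 1, 6 of the 37 members (16.2%) were called, beside 138 of all 451 genes (30.6%). All 6 were higher in CLE mice: Bcl3 (log2 difference 2.06, adjusted p = 0.00939), Tnfaip6 (2.06), Tnfrsf1b (1.82), Tnfrsf13b (1.44), Tnfrsf14 (1.13) and Tnfsf13b (1.07).

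Taking the 8 diseased mice together against the 4 littermates gave 3 called members of 37 (8.11%), beside 10.2% of all genes; 2 were higher and 1 lower, a split that was 2 and 7 with median centring and 2 and 6 with quantile normalization. Bcl3 rose by 1.77 ± 0.47 and Tnfaip6 by 2.14 ± 0.57 on the log2 scale (adjusted p = 0.0424 for both), and Tnfsf18 had a log2 difference of -0.99 ± 0.28 (adjusted p = 0.0428). Traf2 and Traf5 followed without a call, at -0.62 ± 0.22 and -0.72 ± 0.27 (adjusted p = 0.0785 and 0.0908). With limma, no member was called when any 1 littermate, Merkel het CLE 1, Merkel het CLE 3, CLE 2 or CLE 4 was left out, beside 0 to 18 of all 451 genes; 4 to 10 members had an unadjusted p under 0.05 in these fits. Without Merkel het CLE 4, 1 member was called, beside 18 of all genes, and without CLE 3 there were 5 (13.5%), beside 131 of all genes (29%). This comparison shares its mice with the 2 above it and is no separate evidence.

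Between Merkel het CLE and CLE mice, no member was called, beside 0.222% of all genes (1 gene, not a member). At an unadjusted limma p under 0.05 there were 10 members (27%), all lower in Merkel het CLE mice, beside 16.6% of all genes lower at that level. In either direction these were 10 members and 87 of all 451 genes. The counts became 11 and 95 with rescaling on the reference genes, and 7 and 65 with median centring. They were 6 and 65 with quantile normalization, and 3 and 61 with background subtracted. The groups did not overlap for Cd27, Tnfsf10, Lta and Traf2, 4 of 37 members (10.8%) beside 7.98% of all genes. Tnfsf10 and Traf2 were above background in all 12 libraries, Cd27 in 6 and Lta in 7. Every CLE library had a larger factor than every Merkel het CLE library, and the part of the factors was not tested. Of the 37 tested members, 5 had a positive difference, beside 31% of all genes. The members' median log2 difference was -0.44, and that of all genes was -0.26. The genes with the smallest p were Cd27 at -1.41 ± 0.42 (adjusted p = 0.132), Tnfsf15 at -0.91 ± 0.32, Nfkb2 at -0.69 ± 0.24, Tnfsf10 at -1.14 ± 0.42 and Lta at -1.25 ± 0.47 (adjusted p = 0.203 for each of the last 4). Without CLE 3, Cd27 was called (log2 difference -1.64, adjusted p = 0.0490). For the 2 genes that rose against littermates, the intervals of this difference ran from -0.14 to 2.72 for Tnfaip6 and from -0.70 to 1.64 for Bcl3.

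**Figure D3:**
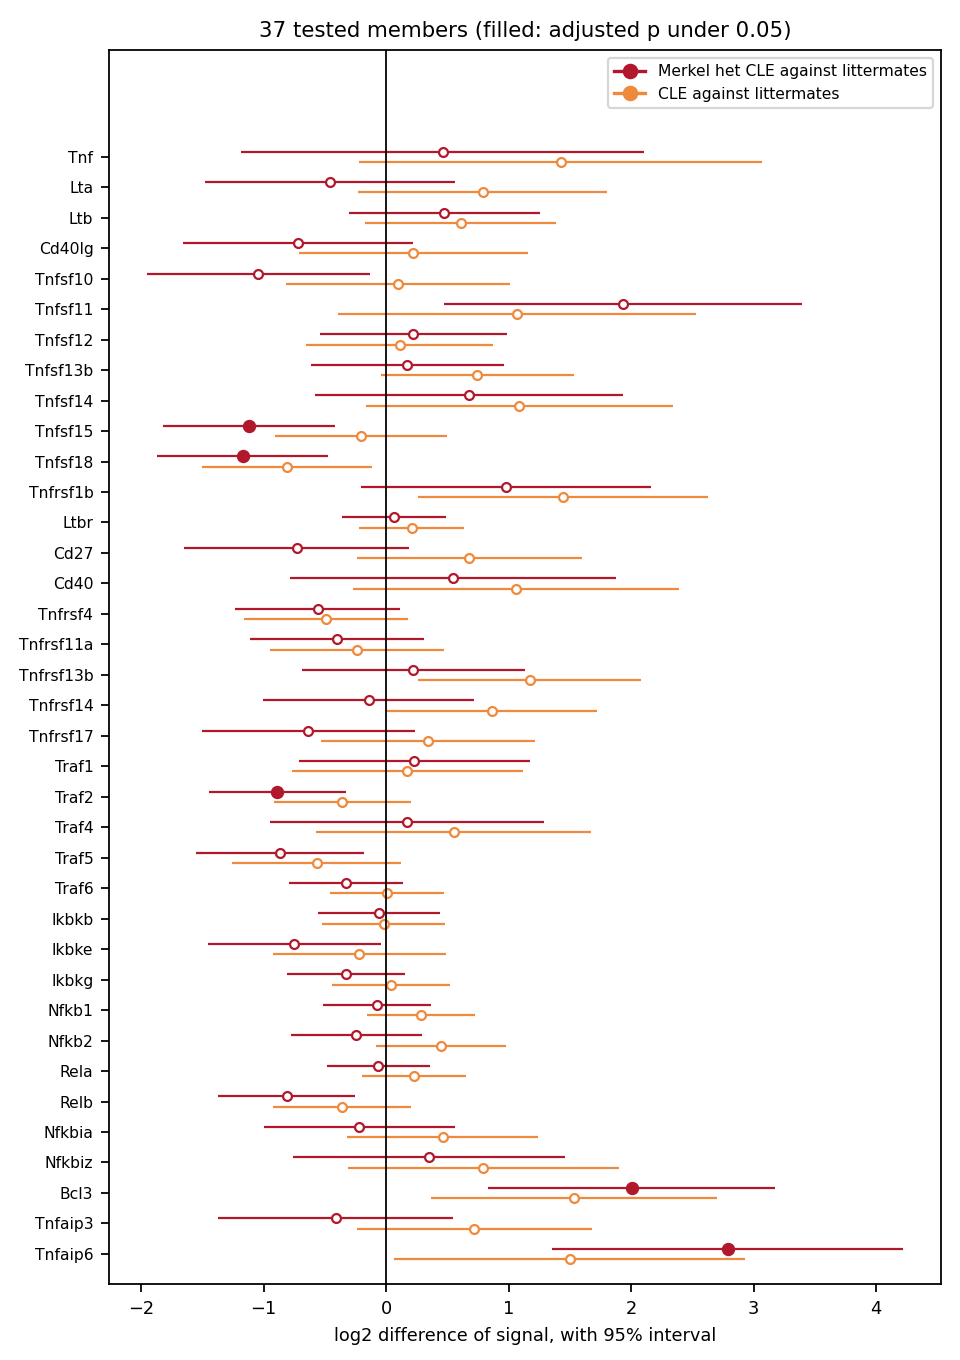
Log2 differences of the 37 tested members with 95% intervals, for Merkel het CLE mice against littermates (red) and CLE mice against littermates (orange), which share the littermates; filled points have an adjusted p under 0.05. Filled points are Tnfsf15, Tnfsf18, Traf2, Bcl3 and Tnfaip6, all in the comparison of Merkel het CLE mice.

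Among the ligands, Tnf itself was low in most libraries. It had 26.5, 31.3, 95.4 and 32.9 units in Merkel het CLE mice, 517, 71.6, 33.5 and 31.3 units in CLE mice and 29.6, 36.4, 28.4 and 23.00 units in littermates. CLE 1 stood far above all others, Merkel het CLE 3 and CLE 2 came next, and the remaining values lay together near the background. The log2 difference was 0.46 ± 0.76 for Merkel het CLE mice and 1.43 ± 0.76 for CLE mice, each against littermates (adjusted p = 0.695 and 0.242).

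The lymphotoxins Lta and Ltb form the membrane ligand of the lymphotoxin beta receptor. Lta had 21.5, 24.5, 18.04 and 28.4 units in Merkel het CLE mice, 88.97, 56.8, 43.3 and 42.9 units in CLE mice and 30.6, 76.8, 34.4 and 12.1 units in littermates, with every CLE library above every Merkel het CLE library. Ltb had 82.99, 55.8, 78.2 and 45.7 units in Merkel het CLE mice, 88.97, 74.1, 43.3 and 84.7 units in CLE mice and 49.4, 64.7, 50.6 and 26.6 units in littermates, and all 3 groups overlapped. Lta was above background in 2 Merkel het CLE libraries, 3 CLE libraries and 2 littermates.

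Tnfsf10, the death ligand TRAIL, had 55.1, 96.9, 75.6 and 35.7 units in Merkel het CLE mice, 116.8, 111, 106 and 256 units in CLE mice and 205, 149.6, 83.04 and 105 units in littermates. All 12 values were above background, and the Merkel het CLE libraries were all below the CLE libraries. Against littermates, where the groups overlapped, the log2 difference of Merkel het CLE mice was -1.04 ± 0.42 (adjusted p = 0.115).

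Cd40lg, the CD40 ligand of helper T cells, had 20.03, 24.5, 17.2 and 20.1 units in Merkel het CLE mice, 50.04, 61.7, 33.5 and 24.4 units in CLE mice and 24.7, 76.8, 38.5 and 18.1 units in littermates. It exceeded background in 1 Merkel het CLE library, 2 CLE libraries and 1 littermate, so these values mostly record background. Tnfsf11, the osteoclast and lymph node cytokine RANKL, was above background in 3 Merkel het CLE libraries, 1 CLE library and no littermate. It ranged from 16.6 to 189.6 units in Merkel het CLE mice, from 16.8 to 66.7 units in CLE mice and from 10.9 to 32.4 units in littermates. The fitted log2 difference of Merkel het CLE mice from littermates was 1.94 ± 0.67 (adjusted p = 0.0757), with no littermate above background. Tnfsf11 thus passed the filter through diseased mice alone, and its littermate values record background. It was called without Merkel het CLE 2 (2.57, adjusted p = 0.0246) and with quantile normalization (1.86). It was also called with background subtracted (4.70) and with array weights (2.45). Each of these calls is against the same background values and cannot give the size of a rise. Littermates 1, 2 and 3 lay below the mean of their own negative controls, which limits the 4.70 most.

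The other ligands were not called against littermates in either diseased group. Tnfsf13b, the B cell survival factor BAFF, ranged from 34.8 to 59.4 units in Merkel het CLE mice, 34.9 to 111 units in CLE mice and 34.4 to 44.5 units in littermates. Tnfsf14, the HVEM ligand LIGHT, ranged from 32.3 to 102 units in Merkel het CLE mice, 32.1 to 172 units in CLE mice and 23.3 to 52.6 units in littermates. Log2 differences of Merkel het CLE and of CLE mice from littermates were 0.17 ± 0.36 and 0.74 ± 0.36 for Tnfsf13b, and 0.68 ± 0.58 and 1.09 ± 0.58 for Tnfsf14. Tnfsf12, the cytokine TWEAK, differed by 0.22 ± 0.35 and 0.11 ± 0.35. Tnfsf8, the CD30 ligand, was above background in 3 of 12 libraries and was not tested.

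Of the receptors, none of the 9 tested was called in the group comparisons. Tnfrsf1b, the second TNF receptor, carried mainly by leukocytes, had 562, 232, 359 and 135 units in Merkel het CLE mice, 884, 397, 177 and 374 units in CLE mice and 146, 72.8, 219 and 179 units in littermates. The groups overlapped because Merkel het CLE 4 and CLE 3 lay within the littermate range. The log2 difference from littermates was 0.98 ± 0.54 in Merkel het CLE mice (adjusted p = 0.248) and 1.44 ± 0.54 in CLE mice (adjusted p = 0.130). Ltbr, the lymphotoxin beta receptor of stromal and epithelial cells, was even: 636, 583, 626 and 617 units in Merkel het CLE mice, 751, 921, 554 and 560.4 units in CLE mice and 556, 542, 639 and 623 units in littermates. Its log2 difference between Merkel het CLE mice and littermates had a 95% interval of -0.36 to 0.49.

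Cd27, a co-stimulatory receptor of T cells and memory B cells, had 18.6, 25.4, 13.8 and 23.8 units in Merkel het CLE mice, 111, 54.3, 33.5 and 42.9 units in CLE mice and 28.6, 60.6, 35.4 and 20.6 units in littermates. Each CLE library exceeded each Merkel het CLE library, but 1 Merkel het CLE library, 3 CLE libraries and 2 littermates were above background. T cell markers were set beside Cd27, Lta and Cd40lg. The summed signal of the 8 on the panel was 271 to 441 units in Merkel het CLE mice and 490.3 to 851 units in CLE mice. It was 444 to 671 units in littermates. The sum includes Cd6 and Cd8a, which did not pass the filter. Of the 6 that were tested, 3 were lower in Merkel het CLE mice than in littermates by adjusted p and 2 had a positive difference. Cd4 and Cd5 overlapped between these groups. Cd4 was 23.8 to 56.5 units in Merkel het CLE mice and 28.3 to 36.5 in littermates, and Cd5 was 47.0 to 90.2 and 25.4 to 72.8. None of the 6 was called between Merkel het CLE and CLE mice, the comparison in which Cd27 and Lta did not overlap. The part of the T cell markers in these differences was not tested.

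Cd40, the receptor of antigen-presenting cells for helper T cells, had 60.1, 28.4, 61.00 and 25.6 units in Merkel het CLE mice, 100.1, 29.6, 25.1 and 151 units in CLE mice and 12.8, 52.6, 28.4 and 29.1 units in littermates. The highest value was that of CLE 4, while CLE 1 did not exceed its own background threshold. Tnfrsf13b, the BAFF and APRIL receptor TACI of B cells, had 31.5, 27.4, 33.5 and 21.04 units in Merkel het CLE mice, 122, 59.2, 30.7 and 40.6 units in CLE mice and 25.7, 24.3, 35.4 and 14.5 units in littermates. CLE 1, CLE 2 and CLE 4 were above all Merkel het CLE libraries and littermates, and CLE 3 was not. Tnfrsf17, the plasma cell receptor BCMA, ranged from 11.5 to 24.9 units in Merkel het CLE mice, 21.0 to 59.3 units in CLE mice and 20.2 to 33.6 units in littermates. B cell markers, with 2 of 6 above the filter, summed to 82.3 to 106 units in Merkel het CLE mice, 138 to 272 units in CLE mice and 111 to 267 units in littermates, and their part was not tested.

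Tnfrsf14, the LIGHT receptor HVEM, ranged from 113 to 339 units in Merkel het CLE mice, 229 to 672 units in CLE mice and 162 to 290.3 units in littermates. Its log2 difference was 0.86 ± 0.40 between CLE mice and littermates (adjusted p = 0.185), and Merkel het CLE and CLE mice were not called apart (adjusted p = 0.205). Tnfrsf4, the co-stimulatory receptor OX40 of activated T cells, was 96.9 to 142 units in Merkel het CLE mice, 71.6 to 175 units in CLE mice and 127 to 210.3 units in littermates. Tnfrsf11a, the RANKL receptor, differed from littermates by -0.40 ± 0.32 in Merkel het CLE mice and -0.24 ± 0.32 in CLE mice on the log2 scale. Of the 3 untested receptors, Tnfrsf8 (CD30) exceeded background in 1 library, and Tnfrsf9 (4-1BB) and Tnfrsf13c (the BAFF receptor) exceeded it in none.

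Of the adaptors other than Traf2, none was called. Traf5, which serves CD40, OX40 and the lymphotoxin beta receptor, had 266, 292, 209.6 and 150.0 units in Merkel het CLE mice, 178, 444, 342 and 208 units in CLE mice and 429.6, 416, 419 and 364 units in littermates. The Merkel het CLE libraries were all below the littermates, and the CLE libraries lay on both sides of them. The log2 difference was -0.87 ± 0.32 for Merkel het CLE mice (adjusted p = 0.0844) and -0.57 ± 0.32 for CLE mice, each against littermates. Traf6, which carries signals of the IL-1 and Toll-like receptors as well as CD40 and RANK, had 644, 469, 636 and 557 units in Merkel het CLE mice, 634, 999.9, 793 and 538 units in CLE mice and 744, 708, 726 and 696 units in littermates. Its shift was small although Merkel het CLE mice and littermates did not overlap (-0.33 ± 0.21, adjusted p = 0.315). Traf1, itself an NF-kB target, and Traf4 differed between Merkel het CLE mice and littermates by 0.23 ± 0.43 and 0.17 ± 0.51, and the highest Traf4 value was the 211 units of CLE 1.

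None of the 3 kinase genes was called. Ikbkb, the catalytic subunit of the classical pathway, had 622, 464, 492 and 474 units in Merkel het CLE mice, 512, 785, 441 and 422 units in CLE mice and 521, 647, 501 and 469.6 units in littermates. Its log2 difference between Merkel het CLE mice and littermates was -0.06 ± 0.23, with an interval of -0.56 to 0.44. Ikbkg, the scaffold subunit NEMO, had 255, 247, 220.0 and 237 units in Merkel het CLE mice, 311, 407, 304 and 237 units in CLE mice and 242, 339.6, 330.1 and 300.1 units in littermates, with a difference of -0.33 ± 0.22. Ikbke, the kinase IKK epsilon of the interferon response, had 328, 252, 216 and 153 units in Merkel het CLE mice, 478, 454, 226 and 242 units in CLE mice and 380.2, 518, 336 and 330.4 units in littermates. Each Merkel het CLE library lay below each littermate for Ikbke, at a log2 difference of -0.75 ± 0.33 that was not called (adjusted p = 0.142), with an interval of -1.46 to -0.04. It was called with median centring (-1.09, adjusted p = 0.0281) and with quantile normalization (-0.93, adjusted p = 0.0434).

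Of the 4 NF-kB subunits, none was called. Rela, the main activating subunit p65, had 864, 614, 763 and 663 units in Merkel het CLE mice, 1018, 1071, 753 and 734 units in CLE mice and 673, 788, 829 and 726 units in littermates. Nfkb1, the precursor of p50, had 1213, 1072, 1133 and 855 units in Merkel het CLE mice, 1724, 1563, 1151 and 1095 units in CLE mice and 1071, 1346, 1066 and 1002 units in littermates. For both genes CLE 1 and CLE 2 were the highest libraries of all 12. These 2 libraries had 134994 and 214798 counts, fewer than each other library except littermate 2 (99297), and the part of low counts in their high values was not tested. The 95% interval of the log2 difference between Merkel het CLE mice and littermates was -0.49 to 0.36 for Rela and -0.51 to 0.37 for Nfkb1.

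Nfkb2, the precursor of p52, had 972, 667, 647 and 564 units in Merkel het CLE mice, 1501, 1464, 834 and 875 units in CLE mice and 809.8, 873, 788 and 831 units in littermates. The CLE mice fell into a high pair, CLE 1 and CLE 2, and a pair near the littermates. Relb, the partner of p52, had 341, 363, 338 and 198 units in Merkel het CLE mice, 489, 412, 331 and 435 units in CLE mice and 594, 687, 478 and 404 units in littermates. Every Merkel het CLE library was below every littermate, and Merkel het CLE 4 was lowest. The log2 difference of Relb was -0.81 ± 0.26 (adjusted p = 0.0596). With the number in the mouse titles as a random block, Relb passed (-0.84, adjusted p = 0.0408) and 6 members were called in place of 5.

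The inhibitors that NF-kB itself induces were highest in the same pair of CLE mice. Nfkbia, which encodes IkB alpha, had 1094, 484, 849 and 562 units in Merkel het CLE mice, 1879, 1341, 1122 and 589 units in CLE mice and 928, 1051, 668 and 710.4 units in littermates. Nfkbiz, which encodes the nuclear cofactor IkB zeta of keratinocyte responses to IL-17, had 2991, 1164, 1559 and 1203 units in Merkel het CLE mice, 4226, 4175, 1791 and 707 units in CLE mice and 1182, 1415, 1050.1 and 1411 units in littermates. In both genes the 3 groups overlapped, and CLE 4 was among the lowest libraries. Tnfaip3, which encodes the deubiquitinase A20 that shuts the pathway off, ranged from 203 to 424 units in Merkel het CLE mice, 298 to 1257 units in CLE mice and 344 to 438 units in littermates. Log2 differences between Merkel het CLE mice and littermates were -0.22 ± 0.36 for Nfkbia, 0.35 ± 0.51 for Nfkbiz and -0.41 ± 0.44 for Tnfaip3, and those between CLE mice and littermates were 0.46 ± 0.36, 0.79 ± 0.51 and 0.72 ± 0.44, with no call. All 12 values of each of these 3 genes were above background, and CLE 1 and CLE 2 are the low-count libraries named with the subunits.

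**Figure D4:**
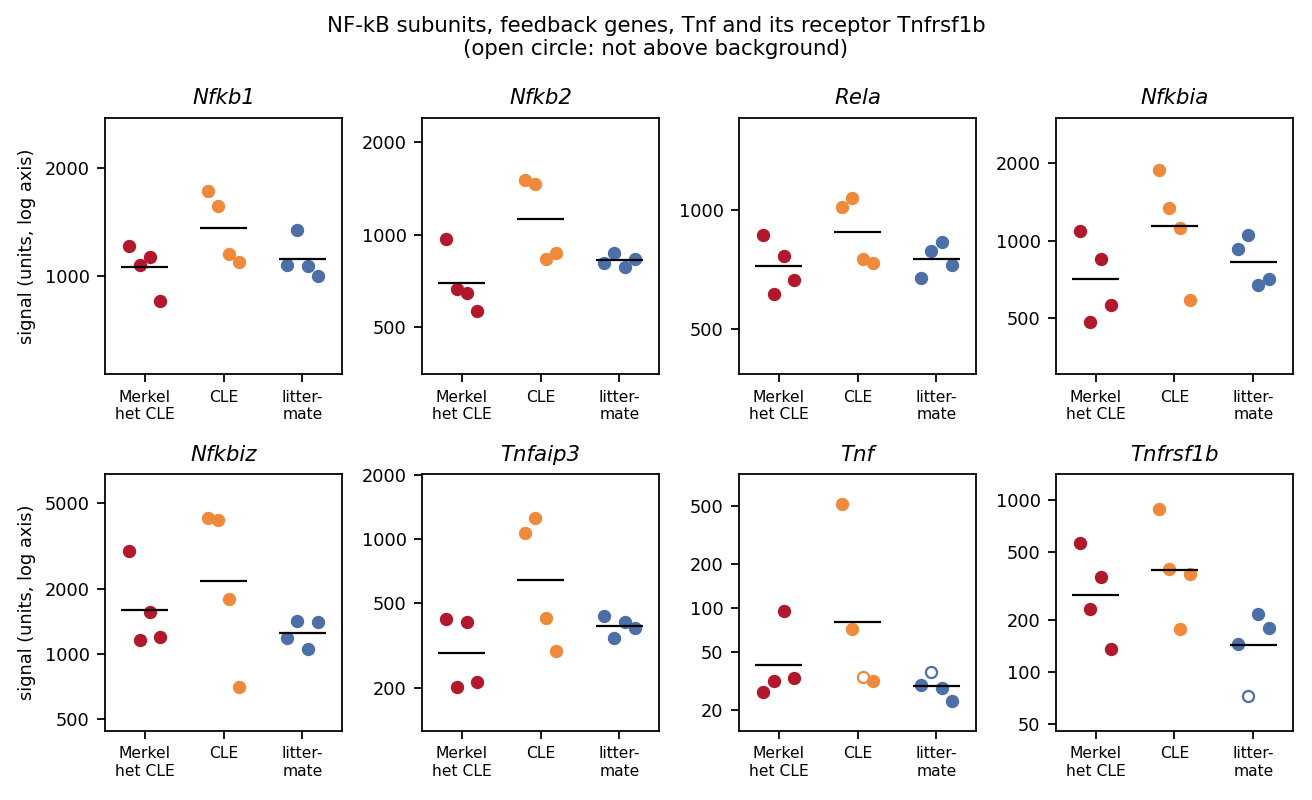
Signal in units (log axis) of 3 NF-kB subunits, 3 feedback genes, Tnf and its receptor Tnfrsf1b, 1 point per library with the mean on the log scale as a line; open circles are not above background. CLE 1 and CLE 2 are the highest libraries for Nfkb1, Nfkb2, Rela, Nfkbia, Nfkbiz and Tnfaip3, while the Merkel het CLE libraries overlap the littermates for all 8 genes.

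Among the 8 diseased mice, in a fit that also holds the group, no member followed the skin disease score at the adjusted threshold (0% of all genes called). At an unadjusted limma p under 0.05 there was 1 member of 37 (2.7%), Cd40, beside 4.43% of all genes. Cd40 had a slope of 1.06 ± 0.30 on the log2 scale per score unit (adjusted p = 0.718). It was above background in all 4 Merkel het CLE libraries, but among the CLE libraries in CLE 4 alone. CLE 2 and CLE 3, the mice with a score of 1, were not above it. Next by p were Tnfaip6 at 0.97 ± 0.47, Traf5 at -0.45 ± 0.25, Tnfrsf1b at 0.54 ± 0.39 and Traf6 at -0.25 ± 0.19. Bcl3 had a slope of 0.53 ± 0.42. CLE 2, with a score of 1, had more Bcl3, Nfkbia, Nfkbiz and Tnfaip3 than CLE 4, with a score of 3.

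**Figure D5:**
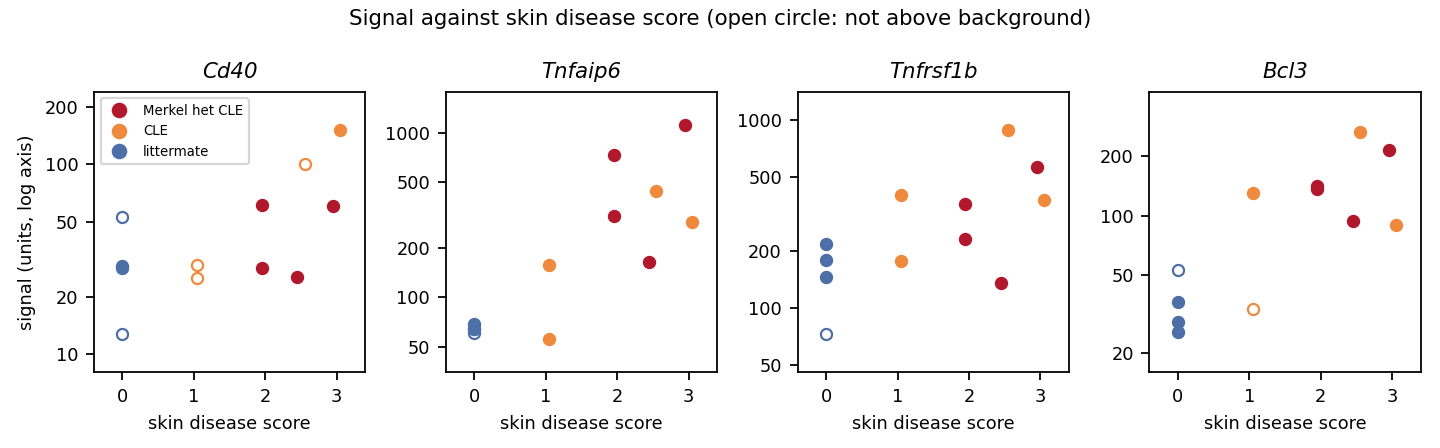
Signal in units (log axis) of Cd40, Tnfaip6, Tnfrsf1b and Bcl3 against the skin disease score, 1 point per mouse, slightly offset by group; open circles are not above background. CLE 3, at a score of 1, lies near the littermates for Tnfaip6 and Bcl3.

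Other genes of the pathway on the panel were counted from 2 lists. Both were chosen with earlier results of these data known, so their shares and medians are no separate evidence. Of 15 signalling genes outside the symbol rule, such as Chuk, Myd88 and the Irak kinases, none was higher and 1 was lower in Merkel het CLE mice than in littermates: Mapk14, the stress kinase p38 alpha, at -0.73 ± 0.20 (adjusted p = 0.0399). Their median log2 difference was -0.10, beside 0.01 for all genes. Of 19 tested NF-kB target genes, 4 were higher and none lower in Merkel het CLE mice, beside 4.88% of all genes higher and 6.87% lower. These were Il1b, a cytokine of the inflammasome, at 4.62 ± 1.17, Ptgs2, the inducible cyclooxygenase, at 4.10 ± 0.95, Cxcl1, a neutrophil chemokine, at 3.34 ± 0.95, and Il6, a cytokine of the acute phase, at 3.18 ± 0.85. All 4 were above background in every Merkel het CLE library, but among the littermates Il6 was above it in none, Il1b in 1, Cxcl1 in 2 and Ptgs2 in 3. Il6 thus passed the filter through diseased mice alone, as did Ccl3 and Ccl4 among the targets not called. All 4 calls were lost without Merkel het CLE 1, without any 1 littermate, in TLR9ko/ko libraries alone and without the K14Cre+ littermates, where no gene of the panel was called higher. The targets' median log2 difference was 1.18 between Merkel het CLE mice and littermates, beside 0.01 for all genes, and 1.18 between CLE mice and littermates, beside 0.35 for all genes. None of the 19 was called between CLE mice and littermates, where Cxcl10, the interferon-induced T cell chemokine, had the smallest p (4.02 ± 0.87, adjusted p = 0.111). These 2 comparisons share the littermates. The target list leaves out members that are also targets. Of these, Nfkbia at -0.22 and Traf1 at 0.23 were not called between Merkel het CLE mice and littermates.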

How the data were processed

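The deposited table gives a signal per probe and mouse. In each library the gene values were whole multiples of 1 step, within 0.02 units, so the authors' signal is a barcode count times a library factor; which factor, and whether background was removed, was not stated. The 14 control rows are unscaled counts. RNA was extracted with a Qiagen kit and hybridised to the mouse immunology panel, per the labels' protocols. Of 561 gene probes, 549 were matched to a symbol through RefSeq (GRCm38.p6) and 12 were not.

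A gene was tested if it exceeded background in at least 4 of 12 libraries; 451 did, 98 did not and the 12 reference genes were left out. Groups were compared with limma 3.58.1 (R 4.3.3) on log2(value + 1), all 12 libraries in 1 fit of group means with a variance trend. No background was subtracted on this scale, and the background differed between libraries. Differences of low genes can therefore be understated or overstated. The ± values are standard errors, and p-values were adjusted by Benjamini-Hochberg across all 451 tested genes (threshold 0.05). The score trend was fitted in the 8 diseased mice, adjusting for group. The fit was tested on simulated data. Counts limit the precision: littermate 2 and CLE 1 have the fewest. Each library is a separate mouse, but some share a number in their titles (what it marks was not stated); no 2 groups form pairs by it, and it was tried as a random block (consensus correlation 0.213 in the group fits and 0.455 in the score fit). The members and gene lists were chosen with earlier results of these data known. Named with values in every library are members called in any comparison, the 5 with the smallest p in each, and the core ligands, receptors, kinases, subunits and inhibitors; other members are given by range or difference. Motifs were searched with Python 3.11.15, and pandas 2.3.3, numpy 2.4.6 and matplotlib 3.10.9 made tables and figures. Alternatives covered scaling, pseudocount, filter, background, weights, genotype subsets, the block and leaving out each library.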

Additional observations from a re-analysis of the deposited data

Results flagged for a closer look

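In 8 of 123 sets of 4 libraries (41 members in 3 groups), 1 library stood apart from the other 3 by Dixon's 95% criterion on the log2 scale. Chance gives about 1 in 20. Relb was 197.55 units in Merkel het CLE 4, against 338 to 363 in the other Merkel het CLE mice. Tnf was 95.37 units in Merkel het CLE 3, against 26.5 to 32.9 in the others of its group. Tnfsf10 was 256.42 units in CLE 4, against 106 to 116.8 in the other CLE mice. Tnfsf13b was 34.43 units in littermate 3, against 43.6 to 44.5 in the other littermates. The remaining 4 values were not above background: Tnfsf15 at 19.72 units in CLE 4 (32.1 to 33.5 in the other CLE mice), Tnfsf8 at 61.16 units in CLE 1 (19.8 to 23.2 in the other CLE mice), and Tnfrsf13c at 68.74 units and Tnfrsf9 at 32.35 units in littermate 2 (12.1 to 14.8 and 9.88 to 12.1 in the other littermates).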

How the results depend on the processing

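The 5 members called between Merkel het CLE mice and littermates kept their sign under every alternative that tested them, but their calls did not hold throughout. The count of 5 (with 53 of all 451 genes) became 8 with median centring (85 of all genes), 9 with quantile normalization (79), 9 with array weights (185), 3 with a pseudocount of 16 (34), 3 with background subtracted (58), 2 without a filter (31 of 549), 1 among genes above background in all 12 libraries (23 of 260), and 2 without both low-count libraries, littermate 2 and CLE 1 (45). It was 0 in TLR9 ko/ko libraries alone and 0 without the K14Cre+ littermates (8 at an unadjusted limma p under 0.05 in each), with 0 of all genes in both. Leaving out 1 library gave 0 to 6, and 2 to 94 of all genes. For all diseased mice against littermates, 3 calls (46 of all genes) became 9 with median centring (91), 8 with quantile normalization (82), 9 with array weights (196), and 0 with a pseudocount of 16, with genes above background in all 12 libraries, in ko/ko libraries alone, without K14Cre+ littermates and without the low-count libraries (11, 12, 0, 0 and 4 of all genes); leaving out 1 library gave 0 to 5, and 0 to 131 of all genes. For CLE mice against littermates, 0 became 3 with array weights (108 of all genes) and 0 to 6 when 1 library was left out (0 to 138). For Merkel het CLE against CLE mice the range was 0 to 1. The score trend stayed at 0 calls with limma in each alternative run (1 at an unadjusted p under 0.05 with all mice). With the title number as a random replicate block, the calls were 6 for Merkel het CLE mice against littermates and 2 for all diseased mice; for the score trend it gave 68 of all genes at an unadjusted p under 0.05 in place of 20, and 2 members in place of 1. The cause of these shifts was not tested, except that the all-library filter leaves 18 members to test. Scaling moved the median log2 difference of all genes between Merkel het CLE mice and littermates from 0.01 to -0.33 (median centring) and -0.15 (quantile), and between CLE mice and littermates from 0.35 to -0.12 and -0.11 under the same settings. Of the members called between Merkel het CLE mice and littermates, 6 of 8 and 6 of 9 were lower under these settings. A planned count test on recovered reads was not run. Of the tested members, Cd40lg, Tnfsf15 and Tnfsf11 were above background in 4 libraries, Cd27, Tnfsf18 and Tnfrsf17 in 6, and Cd40, Lta and Tnfrsf13b in 7, which limits their differences.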
